A study of Mus musculus with 12 samples.

Results

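Colony-stimulating factors and cytokines of the interleukin-6 family act on neutrophils through receptors that carry JAK kinases, and these phosphorylate STAT proteins. Granulocyte colony-stimulating factor (G-CSF) acts mainly through STAT3 and is known for driving neutrophil production and release from bone marrow, while granulocyte-macrophage colony-stimulating factor (GM-CSF) and interleukin-3 act mainly through STAT5. STAT3 and STAT5 in turn switch on genes of the SOCS family, Socs3 and Cish among them, whose products damp the receptors. The 10 genes described here are 2 ligands (Csf1, Osm), 5 receptor chains (Csf3r, Csf2ra, Csf2rb, Csf2rb2, Il6ra), 1 transcription factor (Stat3) and 2 inhibitors (Socs3, Cish). They were taken by symbol from the 28987 genes of the deposited expression table, and each symbol matched 1 gene. The set was chosen with earlier results of these data known, although the rule itself uses symbols and no values.

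RNA was measured in 12 libraries of sorted neutrophils from FVB mice, 3 in each of 4 groups. The groups were bone marrow (BM) and peritoneal (PT) neutrophils of wild-type (WT) mice, and BM and PT neutrophils of MRP8-Bcl2 mice (labelled MRP8/BCL2+, here Bcl2), which express human Bcl-2 under the human MRP8 regulatory regions, that is in myeloid cells and not in neutrophils alone. All mice, those giving BM cells included, had received 2 mL thioglycollate into the peritoneum, so no group was untreated. The labels place collection at 6 h and name macrophages as the source, whereas the study's methods give 4 or 8 h and neutrophils gated as CD11b+F4/80-GR1++. Nothing in the labels ties a library to a mouse, and p-values measure the spread between libraries only. The methods describe taking peritoneal and marrow cells from each mouse, so BM and PT libraries may share mice, while the fits treat all libraries as independent. Because each library pools many cells, a change in the share of cells that express a gene and a change of RNA per cell cannot be told apart.

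Values are TPM, a level per length scaled to the same total in each library. One read on a transcript of 1 kb was worth between 0.35 TPM (a PT WT library) and 1.63 TPM (a BM Bcl2 library). Genes with long runs of A or T took 8.93 to 24.1% of all TPM in the BM libraries. In PT they took 50.8 and 54.2% in libraries 10 and 11 but 20% in library 12 (WT), and 60.2 and 65.6% in libraries 8 and 9 but 15.5% in library 7 (Bcl2). Such a share lowers the TPM of every other gene. The median log2 fold change of all tested genes from BM to PT was 0.22 in WT and -1.02 in Bcl2, and the members' changes are read against these values. The mouse Bcl2 row served as the check of the genotype labels. The transgene is human Bcl-2, and whether this row counted its reads was not tested. The row was at 58.6 to 333 TPM in 5 libraries labelled Bcl2 and at 0.219 to 2.37 TPM in WT. In library 9, labelled PT Bcl2, it was at 0.695 TPM. The members' changes in Bcl2 are therefore also given without library 9. The neutrophil genes S100a8 and Cxcr2 were at 4495 TPM or more and at 212 TPM or more in every library. S100a8 was nonetheless lower in PT (4495 to 27250 TPM) than in BM (38870 to 153500 TPM). The summed level of the 8 neutrophil markers was 13360 to 65600 TPM in PT against 76880 to 350300 TPM in BM. Cxcr2 and Itgam went the other way, with higher group means in PT. Ly6g was at 51.5 to 1266 TPM in BM, at 0 to 126 TPM in PT, and listed at 0 in library 12 (PT WT). Library 12 also held the most mast cell transcripts, with Cpa3, a mast cell protease, at 481 TPM against 0.825 to 27.4 TPM elsewhere. Library 3 (BM Bcl2) held the most monocyte transcripts, with F13a1 at 498 TPM.

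Csf1, the ligand that keeps macrophages alive and drives their growth, rose from BM to PT in both genotypes and was the member with the largest change. Its level was 14.1, 18.5 and 29.2 TPM in the BM WT libraries and 667, 434 and 489 TPM in PT WT. It was 17.1, 23.5 and 7.39 TPM in BM Bcl2 and 1694, 560 and 441 TPM in PT Bcl2. Every PT library was above every BM library, and library 7 was the highest of all. The log2 fold change was 4.66 (SE 0.60, adjusted p = 0.00132, limma with Benjamini-Hochberg adjustment) in WT and 5.60 (SE 0.60, adjusted p = 0.000185) in Bcl2, and 5.98 (adjusted p = 0.000463) in Bcl2 without library 9. Both calls were kept in all 12 fits that left out 1 library. Here and below, such a fit could move a fold change within a genotype only where the library left out was of that genotype. The others could move only its SE and adjusted p. By rank within a library, which no scaling between libraries can move, Csf1 went from places 2335 to 8069 of 13456 tested genes in BM to places 48 to 208 in PT.

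Csf1 transcripts shared no 31-base stretch with any other gene. Macrophages and fibroblasts are known sources of Csf1, so the macrophage markers are given beside it. The summed level of the 10 macrophage markers was 51.9 to 224 TPM in BM and 163 to 713 TPM in PT. Cd68, which is not particular to macrophages, made up much of the PT sum at 107 to 574 TPM. Of the defining genes, C1qa was at 0 to 0.429 TPM and Adgre1, which encodes F4/80, at 0.532 to 14.7 TPM in PT. Csf1r, the receptor for Csf1, was at 15.7 to 96.7 TPM in PT and 11 to 42.1 TPM in BM. Of the 5 mesothelial markers Msln and Upk3b were at 0 in every library, Wt1 was at 0.75 to 7.59 TPM, and Krt19 and Lrrn4 were at 0 to 1.86 TPM. The part of other cells in the rise of Csf1 was not tested.

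The bases before the start site of Csf1 are shown because it was the member with the largest change. They are 250 bases of RefSeq's mouse annotation on GRCm38.p6, chr3:107760470-107760719, minus strand, 5′ to 3′, and hold no match to the letters TTCNNNGAA, the spacing that STAT dimers are known to bind.
Csf1: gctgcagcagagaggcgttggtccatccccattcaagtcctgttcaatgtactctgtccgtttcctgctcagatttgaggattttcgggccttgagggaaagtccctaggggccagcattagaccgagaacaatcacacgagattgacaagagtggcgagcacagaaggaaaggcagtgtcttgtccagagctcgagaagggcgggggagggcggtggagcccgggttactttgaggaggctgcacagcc

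Osm (chr11:4236420-4241026), oncostatin M, is a cytokine of the interleukin-6 family that activated neutrophils and macrophages release. It did not pass the test in either genotype. Its level was 11.6, 32.2 and 57.5 TPM in BM WT and 42.1, 17.4 and 44.2 TPM in PT WT, ranges that overlapped. It was 61, 7.62 and 5.34 TPM in BM Bcl2 and 92.6, 48 and 24.7 TPM in PT Bcl2, where library 1 (BM) lay above 2 of the PT libraries. The log2 fold change was 0.18 (SE 0.87, adjusted p = 0.946) in WT and 1.71 (SE 0.87, adjusted p = 0.167) in Bcl2. Without library 1 it was 2.73 in Bcl2 (adjusted p = 0.0297) and passed the test, and without library 9 it was 2.17 (adjusted p = 0.125).

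**Figure D1:**
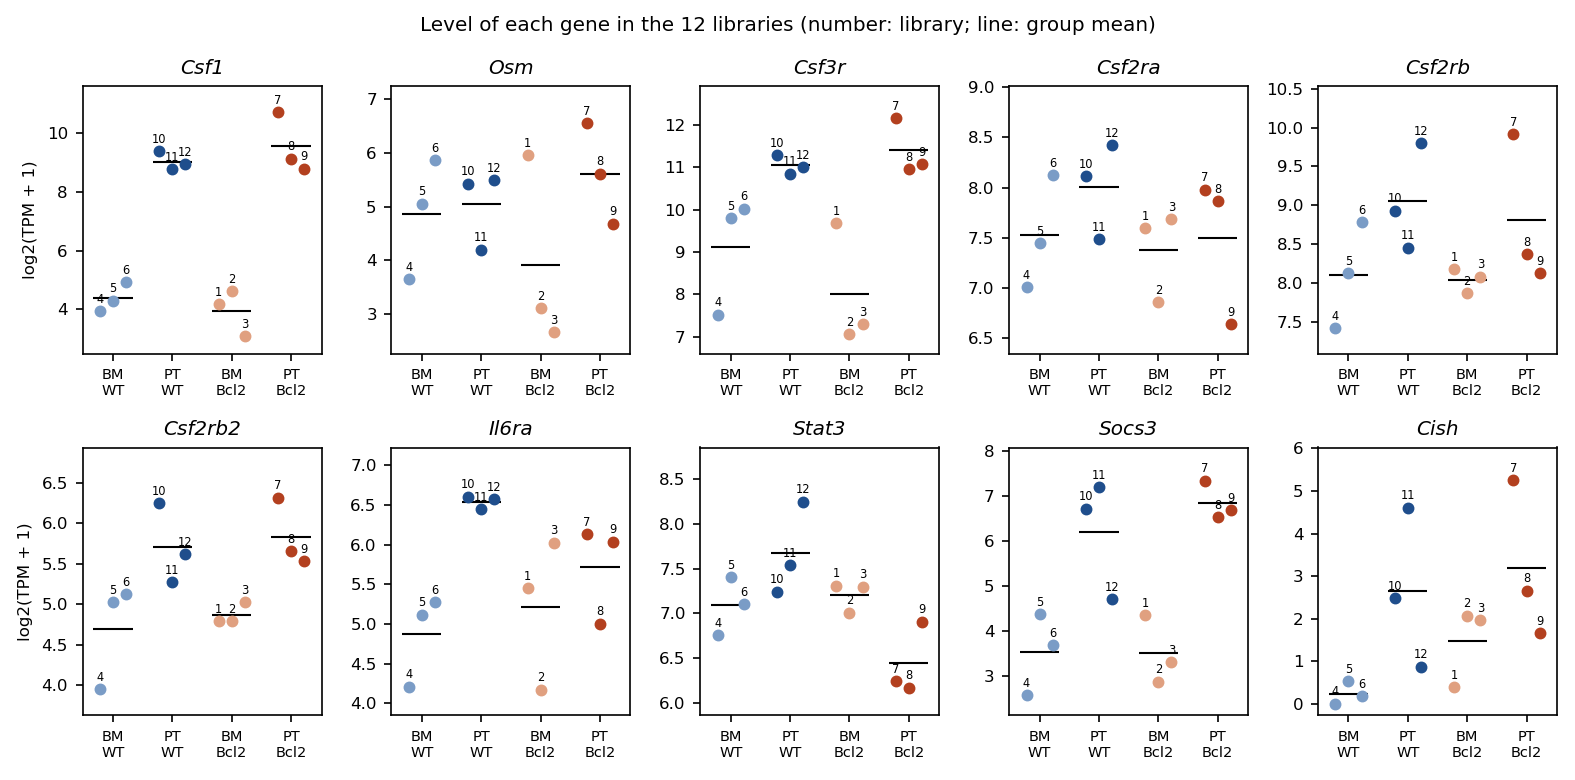
Level of each of the 10 genes in the 12 libraries, as log2(TPM + 1) on the vertical axis with its own range per panel. Each point is 1 library with its number, and the line is the mean of the 3 libraries of the group. Csf1 is higher in all 6 PT libraries than in all 6 BM libraries, while Csf3r, Osm and Socs3 spread widely within BM.

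Csf3r, the G-CSF receptor and the most abundant member in every PT library, rose from BM to PT in Bcl2 and did not pass the test in WT. Levels were 183, 892 and 1038 TPM in WT marrow and 2478, 1839 and 2048 TPM in the WT peritoneum. Among Bcl2 libraries it was at 816, 132 and 155 TPM in BM and at 4569, 1974 and 2150 TPM in PT. All PT libraries lay above all BM libraries, but the BM libraries of each genotype were split, with library 4 (WT) and libraries 2 and 3 (Bcl2) at 132 to 183 TPM and the other BM libraries at 816 to 1038 TPM. The log2 fold change was 1.93 in WT (SE 0.73, adjusted p = 0.189) and 3.38 in Bcl2 (SE 0.73, adjusted p = 0.00673). Without library 9 the change in Bcl2 was 3.55 (adjusted p = 0.0139), and the call was kept in all 12 fits that left out 1 library. The change in Bcl2 exceeded that in WT by 1.46 (SE 1.03), a difference that did not pass the test (adjusted p = 0.456). Among the 13456 tested genes Csf3r stood at places 18 to 34 in PT and at places 56 to 662 in BM. Of the 31-base stretches in its transcripts, 19.9% also occur in a processed pseudogene of chromosome 19, AC105061.2, which is not a row of the deposited table.

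Csf2ra, the ligand-binding chain of the GM-CSF receptor, did not pass the test in either genotype. Its BM WT levels were 127, 173 and 278 TPM, against 276, 178 and 342 TPM in PT WT. The Bcl2 libraries held 192, 115 and 205 TPM in BM and 252, 232 and 98.4 TPM in PT, with library 9 the lowest of all 12. The log2 fold changes were 0.48 in WT (adjusted p = 0.704) and 0.11 in Bcl2 (adjusted p = 0.894), each with an SE of 0.53. Without library 9 the change in Bcl2 was 0.54 (adjusted p = 0.502).

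Csf2rb encodes the beta chain shared by the receptors for GM-CSF, interleukin-3 and interleukin-5, and Csf2rb2 a mouse paralog that serves interleukin-3 alone. The BM WT libraries held Csf2rb at 169, 278 and 438 TPM, and it was at 487, 349 and 891 TPM in PT WT. In Bcl2 it was at 288, 232 and 270 TPM in BM and at 963, 330 and 278 TPM in PT. The groups overlapped, and the highest values came from library 7 (PT Bcl2) and from library 12 (PT WT). Library 12 held the most mast cell transcripts. Libraries 7 and 12 also had the lowest shares of A- and T-run genes in PT, at 15.5 and 20%. By rank within a library Csf2rb stood at places 108 and 101 there, and at places 123 to 166 in the other PT libraries. Csf2rb2 was lower throughout, at 14.4, 31.5 and 33.8 TPM in BM WT and at 74.9, 37.6 and 48.2 TPM in PT WT. In Bcl2 it was at 26.6, 26.6 and 31.6 TPM in BM and at 78.8, 49.3 and 45.1 TPM in PT, so that every PT library was above every BM library. Neither gene passed the test. Csf2rb changed by a log2 fold of 0.96 in WT (adjusted p = 0.42) and 0.76 in Bcl2 (adjusted p = 0.338). Csf2rb2 changed by 1.01 in WT (adjusted p = 0.371) and 0.96 in Bcl2 (adjusted p = 0.212). Without library 9 the changes in Bcl2 were 1.10 for Csf2rb (adjusted p = 0.217) and 1.12 for Csf2rb2 (adjusted p = 0.215).

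The paralogs lie next to each other on chromosome 15 (Csf2rb2 at chr15:78282507-78305721, Csf2rb at chr15:78325752-78353847). Their coding sequences of 2634 and 2688 nt were identical at 95.2% of aligned bases, and 28.6% of the 31-base stretches of Csf2rb2 occur in Csf2rb. The counting could have moved reads between them, so their separate levels are uncertain. Summed before the fit, they changed by 0.97 in WT (adjusted p = 0.393) and 0.79 in Bcl2 (adjusted p = 0.307). Within each library Csf2rb was 6.17 to 18.5 times as high as Csf2rb2. It was 1.32 to 2.02 times as high as Csf2ra in BM and 1.42 to 3.83 times in PT, ratios within a library that do not depend on the scaling between libraries.

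Il6ra, the binding chain for interleukin-6, did not pass the test. Its WT libraries read 17.5, 33.8 and 37.8 TPM in BM and 96.2, 86.4 and 94.2 TPM in PT, with no overlap. In Bcl2 it was at 42.8, 17.1 and 64.1 TPM in BM and at 69.1, 31.1 and 64.6 TPM in PT, which overlapped. The log2 fold change was 1.67 in WT (SE 0.60, adjusted p = 0.16) and 0.51 in Bcl2 (SE 0.60, adjusted p = 0.563), and the difference between the genotypes did not pass the test (-1.17, SE 0.84, adjusted p = 0.464). Leaving out library 9 gave 0.35 in Bcl2 (adjusted p = 0.74).

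Stat3, the transcription factor through which the G-CSF and interleukin-6 receptors mainly act, did not pass the test in any comparison. Its libraries read 107, 168 and 137 TPM in BM WT and 151, 185 and 303 TPM in PT WT. In Bcl2 it was at 158, 128 and 157 TPM in BM and at 75, 71.1 and 119 TPM in PT. All PT Bcl2 libraries lay below all BM Bcl2 libraries and below all PT WT libraries. For WT the log2 fold of Stat3 was 0.59 (SE 0.47, adjusted p = 0.579) and -0.76 in Bcl2 (SE 0.47, adjusted p = 0.249), and -0.996 in Bcl2 without library 9 (adjusted p = 0.188). The Bcl2 value lay 0.25 above the median of all genes in that comparison, and its sign depended on the scaling. After centring by library medians it was 0.83, where the all-gene median was 0.57. With the A- and T-run genes left out it was 0.01, where the all-gene median was -0.53. By rank Stat3 stood at places 455, 649 and 653 in BM Bcl2 and at 1519, 827 and 451 in PT Bcl2, where library 9 ranked above all of BM Bcl2. The gene records of Stat3 (chr11:100885098-100939540) and its neighbour Stat5a on the other strand overlap at their ends, and reads there cannot be told apart without strand.

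Socs3, the inhibitor that binds the G-CSF and interleukin-6 receptors, rose in Bcl2 and did not pass the test in WT. The WT levels were 4.94, 19.6 and 11.9 TPM in BM and 104, 146 and 25.2 TPM in PT. The Bcl2 levels were 19.4, 6.31 and 8.87 TPM in BM and 161, 91.7 and 101 TPM in PT. All PT libraries were above all BM libraries, with library 12 the lowest of PT. For WT the log2 fold of Socs3 was 2.67 (SE 0.73, adjusted p = 0.0638) and 3.34 in Bcl2 (SE 0.73, adjusted p = 0.00699), and the call in Bcl2 was kept in all 12 fits that left out 1 library (3.43 without library 9, adjusted p = 0.0157). Without library 12 the WT change was 3.42 (adjusted p = 0.0274) and passed. The ratio of Socs3 to Stat3 within a library was 0.852 to 2.15 in PT Bcl2 and lay there above its whole BM Bcl2 range of 0.0494 to 0.123. It was 0.046 to 0.117 in BM WT and 0.0832 to 0.789 in PT WT.

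Cish, the inhibitor known as a target of STAT5, was near the level of single reads in BM and scattered in PT. The WT levels were 0, 0.442 and 0.131 TPM in BM and 4.59, 23.4 and 0.834 TPM in PT. In Bcl2 it was at 0.311, 3.21 and 2.89 TPM in BM and at 37.3, 5.32 and 2.15 TPM in PT, where libraries overlapped. For WT the log2 fold of Cish was 2.42 (SE 1.04, adjusted p = 0.255) and 1.72 in Bcl2 (SE 1.04, adjusted p = 0.241), and 2.48 in Bcl2 without library 9 (adjusted p = 0.125). On this scale a fold change understates the change of so low a gene.

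Sequence around the start sites is shown for the members whose RefSeq window (250 bases before to 50 after the start, GRCm38.p6, 8 of 10 members matched) holds TTCNNNGAA. Its match was searched on both strands, although these letters read alike on each. The windows of Socs3 (1 match), Csf2rb2 (1) and Cish (2) held it, and those of Csf1, Csf3r, Csf2ra, Il6ra and Stat3 did not. Over all genes, 2582 of 27025 (9.55%) had a window that held it, and 8.3% of 32851 windows did. The matches are in capitals below, 5′ to 3′. Socs3 is at chr11:117969452-117969616, minus strand, with the match 154 bases before the RefSeq start. The stretch shown stops short of that start, where an exon of another annotated Socs3 transcript begins, and a further transcript starts upstream of it. Csf2rb2 is at chr15:78305712-78305741, minus strand, with the match 15 bases before the start. Cish is at chr9:107296654-107296683, plus strand, with 1 match on the RefSeq start and the next 11 bases further. Both lie in the first transcribed bases of the RefSeq transcript, while the annotated gene begins further upstream, at chr9:107296026. A match is a description of letters and not a measured site.
Socs3: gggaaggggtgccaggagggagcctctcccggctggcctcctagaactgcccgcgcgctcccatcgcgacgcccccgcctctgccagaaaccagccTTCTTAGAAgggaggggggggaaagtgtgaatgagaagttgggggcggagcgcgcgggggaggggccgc
Csf2rb2: cacaaTTCTGAGAAgcaagcaaagctgctt
Cish: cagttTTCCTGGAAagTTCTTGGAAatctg

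Counted together, 1 of the 10 members was called higher in PT of WT mice and 0 lower, where 1.59% of all 13456 tested genes were called higher and 1.22% lower. In Bcl2 mice 3 were called higher and 0 lower, where 2.31% of all genes were called higher and 19.1% lower. A call needed an adjusted p under 0.05 and at least a 2-fold change. In both genotypes the count of 0 lower members stood beside 0 members with a negative change at an unadjusted p under 0.05. All PT libraries lay above all BM libraries for 6 members in WT (background 14.9% of all genes, and 7.97% for the reverse) and for 4 in Bcl2 (background 5.18%). The reverse held for Stat3 alone in Bcl2, where 32.6% of all genes did so. The median log2 fold change of the members was 1.34 in each genotype, against 0.22 and -1.02 for all genes. The -1.02 depended on the scaling, and was -8.06e-05 after quantile normalization and 0.57 with median centring. Genes above 0 numbered 9735 to 12138 in the PT Bcl2 libraries and 12907 to 13463 in BM Bcl2. The part of detection in the all-gene median was not tested. Without library 9 the count of members called higher in Bcl2 was also 3, where 314 of all 13309 tested genes were called higher.

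**Figure D2:**
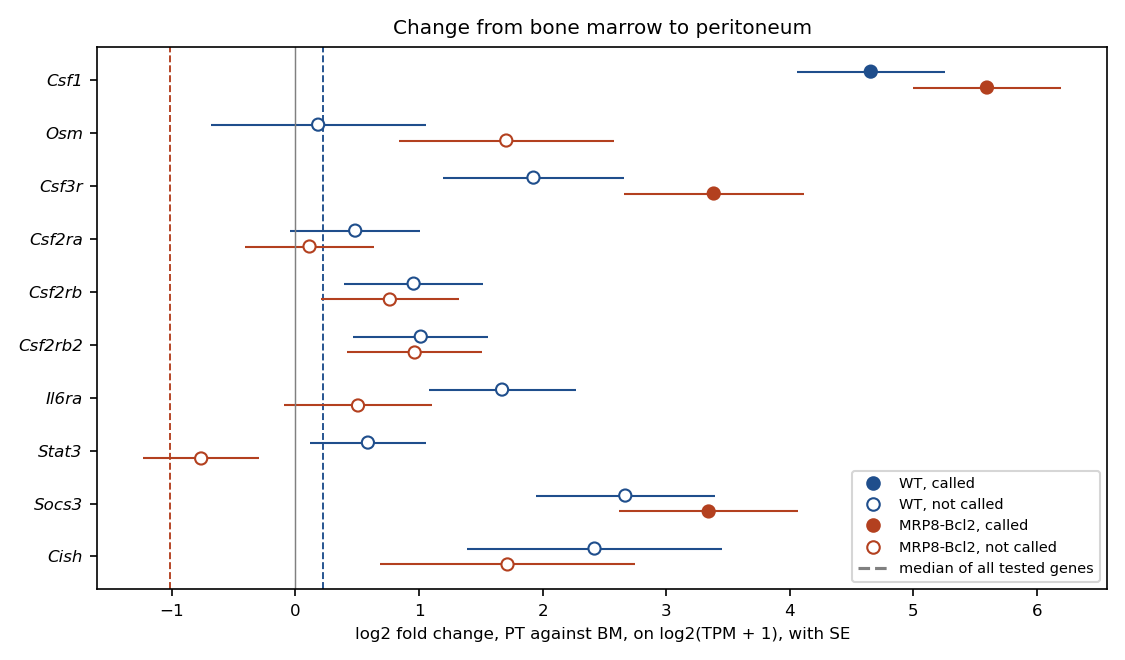
Log2 fold change from BM to PT of each gene on the log2(TPM + 1) scale, with its standard error from the limma fit, in WT (blue) and Bcl2 (red). Filled points passed the test, and the dashed lines mark the median of all tested genes (0.22 in WT and -1.02 in Bcl2). Csf1 is filled in both genotypes, and Csf3r and Socs3 in Bcl2.

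Scaling between libraries moved the counts in Bcl2 more than any single library did. After centring by library medians, 7 members were called higher in Bcl2: Csf1, Csf3r and Socs3 and, beyond these, Osm (3.30, adjusted p = 0.044), Csf2rb (2.35, adjusted p = 0.0344), Csf2rb2 (2.55, adjusted p = 0.0215) and Il6ra (2.10, adjusted p = 0.0465). With the A- and T-run genes left out, 5 were called, those 3 with Csf2rb (1.54, adjusted p = 0.0242) and Csf2rb2 (1.74, adjusted p = 0.0491). In WT the same step added Socs3 (3.22, adjusted p = 0.0378). After quantile normalization the counts were 1 in WT and 3 in Bcl2. All-gene counts moved too. In Bcl2 311 of 13456 genes were called higher with TPM as deposited, 1636 with median centring and 678 after quantile normalization. With the A- and T-run genes left out it was 565 of 13999. In WT these counts were 214, 112, 233 and 479. The all-gene median in Bcl2 was 0.57 with median centring and -0.53 with the A- and T-run genes left out.

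**Figure D3:**
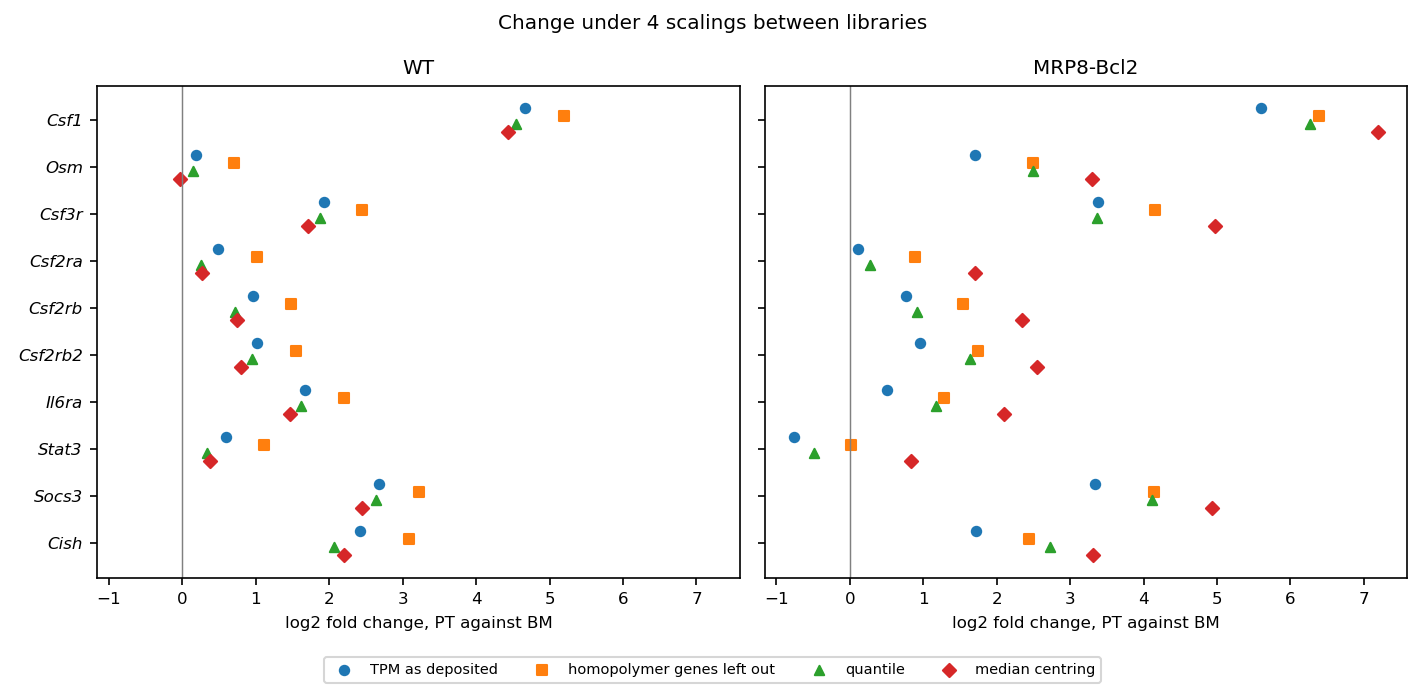
Log2 fold change from BM to PT of each gene under 4 scalings between libraries, in WT (left) and Bcl2 (right). The points of a gene spread more widely in Bcl2, where Stat3 moves from -0.76 to 0.83. The median of all tested genes there, not drawn, moves from -1.02 to 0.57.

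None of the 10 members was called between genotypes, nor in the difference between the genotypes' changes (limma, adjusted p under 0.05). In BM, 0.0149% of all genes were called higher and 0.00743% lower, and 0 members had an unadjusted p under 0.05, against 7.36% of all genes. In PT, 0% of all genes were called higher and 0.0297% lower. There 1 of 10 members had an unadjusted p under 0.05, near the 12.7% of all genes: Stat3, with a log2 fold change of -1.23 (SE 0.47, unadjusted p = 0.0187, adjusted p = 0.325), and -1.47 without library 9 (adjusted p = 0.235). In the difference between the changes 0.0149% of all genes were called, and 0 members had an unadjusted p under 0.05, against 16.9% of all genes. Without library 9 also, 0 members were called in either. Every PT Bcl2 library was below every PT WT library for Stat3 and Il6ra, which held for 18.8% of all genes, and the reverse for no member (0.587% of all genes). No member's BM groups were apart, where 10% of all genes were higher and 1.17% lower in every BM Bcl2 library. The median of all genes was -0.67 in PT and 0.49 in BM for Bcl2 against WT.

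The spread of Csf3r, Osm and Socs3 within BM crossed the genotypes and went with genes of neutrophil maturity. These marker genes were picked for display after their values were seen. In libraries 5, 6 and 1, where Csf3r was at 816 to 1038 TPM, Osm was at 32.2 to 61 TPM and Socs3 at 11.9 to 19.6 TPM. In libraries 4, 2 and 3, Osm was at 5.34 to 11.6 TPM and Socs3 at 4.94 to 8.87 TPM. Cxcr2, a chemokine receptor of mature neutrophils, was at 1493 to 1864 TPM in libraries 1, 5 and 6 and at 212 to 399 TPM in 2, 3 and 4. Retnlg, also high in mature neutrophils, was at 9407 to 20200 TPM in the former and at 342 to 953 TPM in the latter. Mpo, a granule enzyme made by immature cells, was at 263, 622 and 1003 TPM in libraries 5, 6 and 1 and at 1743, 1874 and 3697 TPM in 4, 2 and 3. Mki67, a gene of dividing cells, was at 62.7 to 159 TPM against 295 to 466 TPM. Stat3 held between 107 and 168 TPM over the same 6 libraries. In PT, Mpo was at 4.06 to 17.2 TPM and Mki67 at 5.79 to 22.6 TPM, below every BM library. Cxcr2 was at 1290 to 3914 TPM in PT, but Retnlg, at 192 to 1867 TPM, was below its level in BM libraries 1, 5 and 6. The part of maturity in the changes of Csf3r and Socs3 was not tested.

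**Figure D4:**
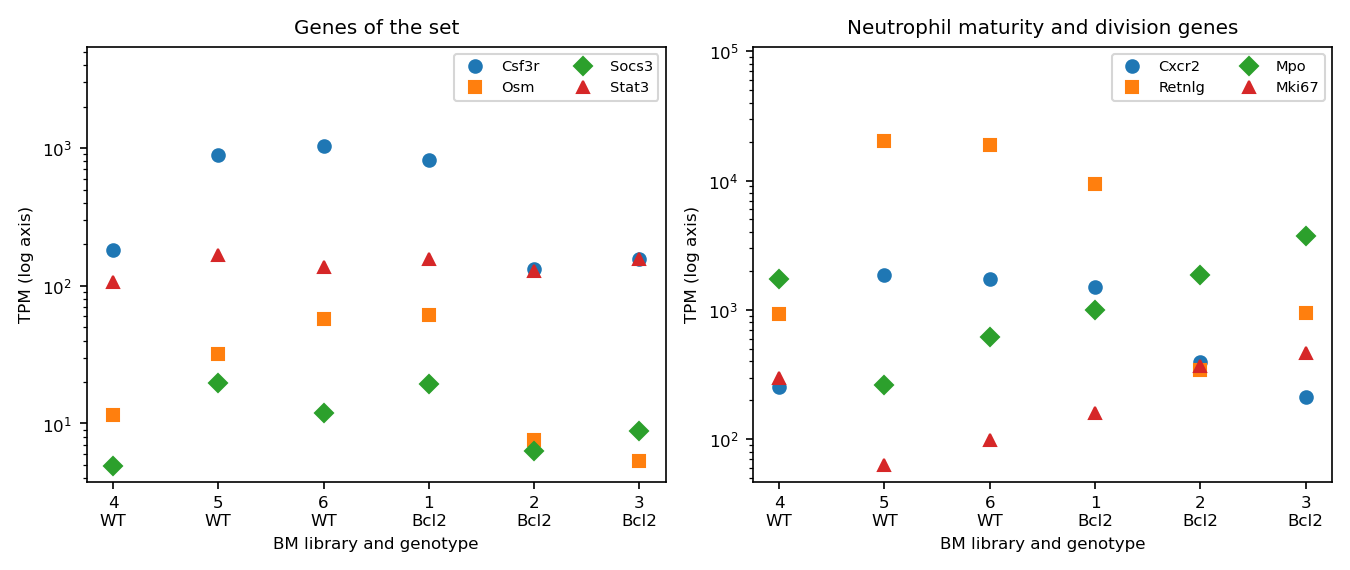
TPM on a log axis in the 6 BM libraries, WT libraries 4 to 6 and Bcl2 libraries 1 to 3, for 4 genes of the set (left) and 4 genes of maturity or division (right). Csf3r and Osm are high in libraries 5, 6 and 1, as are Cxcr2 and Retnlg, while Stat3 is level.

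The members were set beside 93 other genes of the pathway in 5 lists, of which 73 were tested. In WT 7 were called higher and 1 lower, and in Bcl2 8 higher and 3 lower, against 1.59 and 1.22% of all genes in WT and 2.31 and 19.1% in Bcl2. Their median log2 fold change was 0.99 in WT and 0.28 in Bcl2. In the genotype comparisons and in the difference between the changes 0 were called by limma, with 6 in BM, 13 in PT and 9 in the difference at an unadjusted p under 0.05, against 7.36, 12.7 and 16.9% of all genes. Without library 9, 8 of 72 tested were called higher and 8 lower in Bcl2, among them the 8 and 3 named here. In that fit 314 of all 13309 tested genes were called higher and 2178 lower.

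Of the 21 ligands 14 were too low to test. Csf3 (G-CSF), Il3 and Il5 were listed at 0 in all 12 libraries, Csf2 (GM-CSF) was at 0 to 2.15 TPM and Il6 at 0 to 1.42 TPM. Lif was tested, at 0 to 4.69 TPM, and was not called. Il15, a lymphocyte growth factor, was called in Bcl2 (3.19, adjusted p = 0.0342), and at 2.47 it was not in WT (adjusted p = 0.225).

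Of the 23 receptors 18 were tested. Il6st, the gp130 chain that interleukin-6 and oncostatin M receptors share, was at 8.63 to 49.8 TPM in BM and at 1.54 to 44.1 TPM in PT, below Il6ra in each of the 12 libraries. Osmr, the oncostatin M receptor chain, was listed at 0 in all libraries, and Lifr, the leukemia inhibitory factor receptor, was at 0.349 to 7.25 TPM. The Csf1 receptor Csf1r changed by 0.81 in WT (adjusted p = 0.629) and 0.38 in Bcl2 (adjusted p = 0.73). Il10ra, a chain of the interleukin-10 receptor, was called in Bcl2 (2.77, adjusted p = 0.042).

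Of the 10 kinases and other STATs 1 was called. Jak2, the kinase of the GM-CSF and interleukin-3 receptors, was at 4.37 to 28.7 TPM in BM WT and at 73.1 to 115 TPM in PT WT (2.54, adjusted p = 0.0474). In Bcl2 its change was 0.97 (adjusted p = 0.286), and the WT call was kept in only 2 of the 12 fits that left out 1 library. Jak1 was at 91 to 133 TPM in BM and 93.3 to 295 TPM in PT, while Jak3 (6.23 to 26.8 TPM) and Tyk2 (1.05 to 24.5 TPM) were lower throughout. Stat5a was at 1.2 to 12 TPM and Stat5b at 4.77 to 19.6 TPM, both below Stat3 in each library. None of these was called.

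Among 17 other inhibitors, of which 16 were tested, Ptpn6, the phosphatase SHP-1, was called in both genotypes. Its range was 96.1 to 130 TPM in BM WT and 605 to 1136 TPM in PT WT (2.84, adjusted p = 0.0139), and at 167 to 245 TPM in BM Bcl2 and 297 to 1560 TPM in PT Bcl2 (1.71, adjusted p = 0.0407). Pias4, a SUMO ligase that restrains STATs, was called in WT (2.22, adjusted p = 0.0367), and Cbl, a ubiquitin ligase, was lower in PT of Bcl2 (-1.89, adjusted p = 0.0171). Socs2 was at 8.8 to 23.6 TPM in BM and 29.9 to 171 TPM in PT, with changes of 2.14 in WT (adjusted p = 0.0869) and 1.55 in Bcl2 (adjusted p = 0.0899) that did not pass. Socs1 was at 0 to 1.66 TPM and was not tested.

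Of the 22 genes known as STAT responses, 4 were called higher and 1 lower in WT, and 5 higher and 2 lower in Bcl2. The all-gene shares were 1.59% higher and 1.22% lower in WT, and 2.31% higher and 19.1% lower in Bcl2. Those called higher in both were Il1rn, the interleukin-1 receptor antagonist (3.64 in WT, adjusted p = 0.00512, and 5.28 in Bcl2, adjusted p = 0.000198), Icam1, an adhesion molecule (4.29, adjusted p = 0.0136, and 4.22, adjusted p = 0.00449), Saa3, an acute-phase protein (5.33, adjusted p = 0.0412, and 4.76, adjusted p = 0.0206), and Mcl1, a survival protein of the Bcl-2 family (2.21, adjusted p = 0.0179, and 2.35, adjusted p = 0.00414). Lcn2, an iron-binding granule protein made during neutrophil maturation, was lower in both (-4.98, adjusted p = 0.000976, and -3.43, adjusted p = 0.00241). Junb was called higher in Bcl2 (2.39, adjusted p = 0.033), and at 2.79 it was not in WT (adjusted p = 0.0572). Birc5, a gene of dividing cells, was lower in Bcl2 (-3.69, adjusted p = 0.0076). Of the calls in these lists, 5 were kept in at most 6 of the 12 fits that left out 1 library: Jak2, Pias4 and Saa3 in WT, and Ptpn6 and Il10ra in Bcl2. Bcl3 (2.25 in WT and 0.91 in Bcl2), Pim1 (1.99 and 1.17), Cebpb (2.07 and 1.55) and Cebpd (-0.73 and -0.02) did not pass in either. The list's median was 1.59 in WT and 0.72 in Bcl2.

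**Figure D5:**
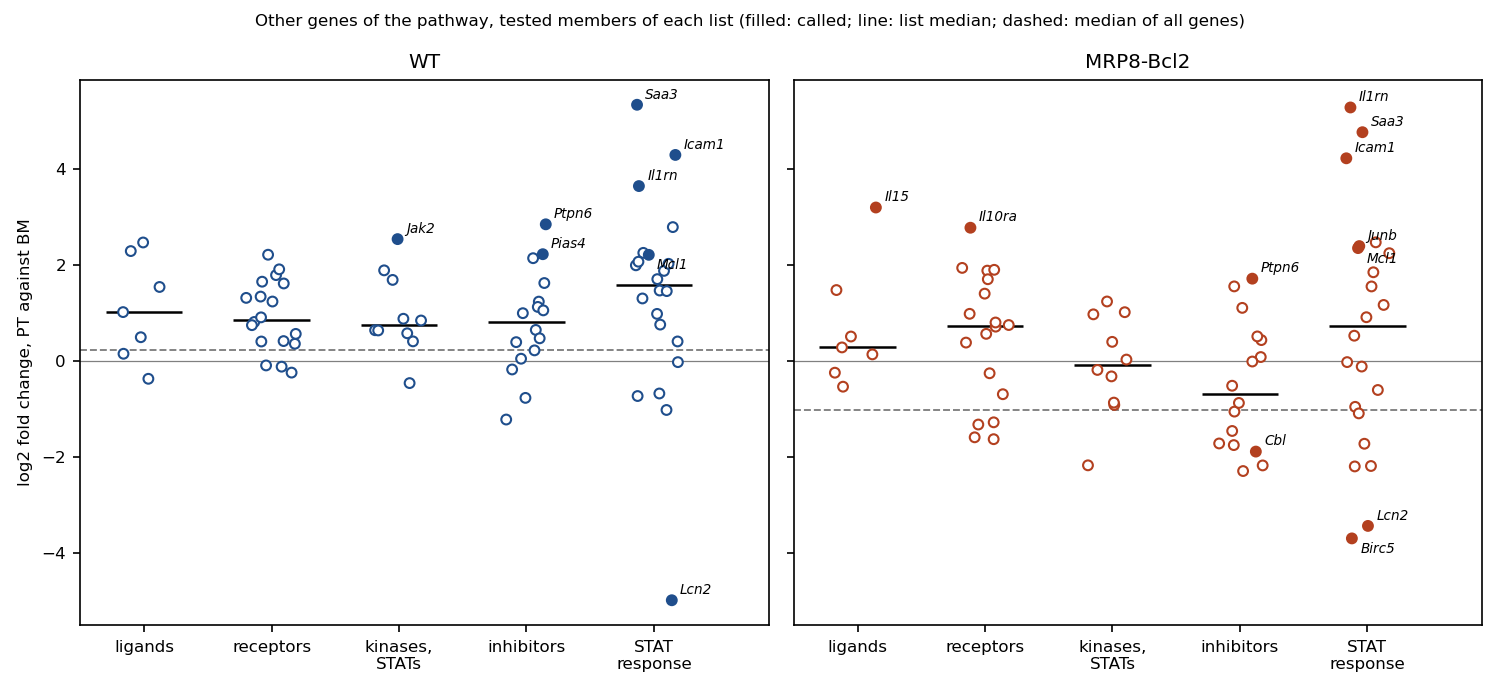
Log2 fold change from BM to PT of each tested gene of the 5 lists, in WT (left) and Bcl2 (right). Filled points passed the test and are named, short lines are list medians and the dashed line is the median of all tested genes. The STAT response genes hold most of the named points, with Il1rn, Saa3, Icam1 and Mcl1 above 2 and Lcn2 below -3 in both panels.

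The genes most like each member over the 12 libraries were taken from 6141 genes with a mean of at least 10 TPM, by Pearson's r on log2(TPM + 1), given as a description. The libraries share the split of PT from BM, which by itself gives a high r. Csf1 was most like Ccl4, a chemokine (r = 0.98 over 12 libraries, 0.76 within the 6 BM libraries and 0.67 within PT). Csf3r was most like Il1f9, interleukin-36 gamma (r = 0.99, 0.98 within BM and 0.83 within PT). Osm was most like Grina (r = 0.92, 0.94 within BM and 0.85 within PT). Stat3 was most like Vamp1, a vesicle fusion protein (r = 0.96, 0.84 within BM and 0.97 within PT). Socs3 was most like Cd97, an adhesion receptor of leukocytes (r = 0.95), but only at 0.48 within BM. The highest r was 0.95 for Csf2rb (with the pseudogene Gm15807), 0.92 for Csf2rb2 (with Cebpb), 0.90 for Cish (with Gm10801), 0.89 for Il6ra (with the glucose transporter Slc2a1) and 0.89 for Csf2ra (with Phc2).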

How the data were processed

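Neutrophils were sorted and their amplified cDNA was sequenced in paired reads. The deposited values, made by the authors with AltAnalyze, are log2(TPM + 1) per gene on the log2 scale, with symbols and Ensembl identifiers. TPM was recovered by reversing the log2. The build used by the authors is not given in the sources used here, and coordinates are those of GRCm38. Columns of the authors' own comparisons (fold changes and p-values) were not used, nor were 2 per-sample columns that matched no sample.

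A gene that reached 1 TPM in 3 or more libraries entered 1 limma fit of the 4 groups (R 4.3.3, limma 3.58.1, eBayes with a trend, pseudocount 1), tested on simulated data. Calls needed a 2-fold change and a p under 0.05 after Benjamini-Hochberg adjustment, the difference between the genotypes' changes the adjusted p alone. The members and lists were chosen with earlier results of these data known. Named genes were all members, 24 set genes of the lists, any further list gene called from BM to PT in both genotypes, the gene of highest r to each member, and the top or defining markers. One of the set genes is not reported here. Il5, Il15, Il10ra, Pias4, Cbl, Birc5 and the maturity genes were chosen after their values were seen.

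The table gives no counts, so depth was estimated from low values: 74.4 to 83.1% lay within 0.15 of a whole number of reads, against 30% by chance. No count test was run. Identity of the paralogs was taken from coding sequence. Alternatives changed the pseudocount, filter, scaling, samples, trend, thresholds and libraries.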

Additional observations from a re-analysis of the deposited data

How the results depend on the processing

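The calls of Csf1 in both genotypes, and of Csf3r and Socs3 in Bcl2, were kept in all 12 fits that left out 1 library. Of the members' fold changes, 231 kept direction and side of the threshold when 1 library was left out, 7 reversed and 2 passed the threshold. Direction was fixed in advance in the fits that left out a library of the other genotype, since these cannot move the fold change. Under the other settings 194 kept both, 3 reversed and 7 passed. The cause of these changes was not tested.

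From BM to PT in WT, 1 member was called higher, 2 with the homopolymer genes (those with long runs of A or T) left out, and 1 to 2 without 1 library (2 without library 12). In Bcl2, 3 were called higher, 7 with median centring, 5 with the homopolymer genes left out and 3 to 4 without 1 library. Of the pathway genes, 7 were called higher in WT, 4 with a pseudocount of 0.1, 3 with median centring, 15 with the homopolymer genes left out, 4 with only the groups compared, 4 without the trend and 1 at an adjusted p under 0.01. Leaving out 1 library gave 1 to 12, with 4, 3, 4, 12, 1 and 3 without libraries 2, 4, 6, 7, 10 and 11. In Bcl2, 8 were called higher, 3 with no filter, 27 with median centring, 16 after quantile normalization, 18 with the homopolymer genes left out, 4 with only the groups compared and 3 at an adjusted p under 0.01. Leaving out 1 library gave 4 to 10, with 5, 4, 4, 5 and 5 without libraries 1, 2, 3, 7 and 8. In Bcl2, 3 were called lower, 1 with median centring and 2 to 8 without 1 library (5 without library 1 and 8 without library 9). Over all genes, 214 were called higher in WT, and 161 with a pseudocount of 0.1. With only the groups compared it was 101, without the trend 164 and at an adjusted p under 0.01 it was 38. For Bcl2 this count was 311, 225 of 18605 with no filter, 203 with only the groups compared and 97 at an adjusted p under 0.01. Leaving out 1 library gave 40 to 306 higher in WT, and 150 to 320 higher and 1072 to 2767 lower in Bcl2. All-gene counts for the scalings follow below.

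Changes that reversed were not called. Osm in WT was -0.03 with median centring and -0.42, -0.01 and -0.04 without libraries 4, 10 and 12 (-0.42 to 0.69 over the 12 fits). Stat3 in Bcl2 was 0.83 with median centring and 0.01 with the homopolymer genes left out, where the all-gene medians were 0.57 and -0.53. Csf2ra in Bcl2 was -0.15, -0.13 and -0.07 without libraries 2, 7 and 8 (-0.15 to 0.54), and Il6ra in Bcl2 was -0.02 without library 2 (-0.02 to 0.91). With a spacing of 4 between the motif's arms, 0 members held it in place of 3. Over all genes in Bcl2, 311 were called higher and 2567 lower, 1636 and 467 with median centring, 678 and 779 after quantile normalization, and 565 and 1077 with the homopolymer genes left out. In WT these were 214 and 164, 112 and 197, 233 and 264, and 479 and 113. No paired analysis was possible because the table's columns carry no replicate number that matches the labels. Depth limits Cish, Csf2, Il6 and Lif, which lay near the worth of single reads.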
